A study of Mus musculus with 8 samples.

Results

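Retinoid metabolism was followed through 9 genes out of the 31053 in the files. They were taken by name for their place in the pathway, with no threshold on measured values, although earlier results of these data were known: *Aldh1a1*, *Aldh1a2* and *Aldh1a3* for synthesis, *Rbp4*, *Crabp1* and *Crabp2* for binding, *Rarb* and *Rarg* as receptors, and *Rarres2* as a responsive gene. A wider list of 66 genes covers the uptake, storage, oxidation and breakdown of retinoids, the partner receptors, textbook response genes and the receptors of chemerin.

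The RNA came from fibro/adipogenic progenitors (FAPs), stromal cells of skeletal muscle that can become adipocytes or fibroblast-like cells. All animals were *mdx* mice of the strain C57BL/10ScSn-Dmdmdx/J, which lack dystrophin, and were 45 days old. FAPs were sorted from hind limb muscles as cells without CD45, CD31 and integrin alpha-7 and with SCA-1, and were divided by the level of SCA-1 into SCA1-High-FAPs and SCA1-Low-FAPs, with 4 replicates each. Both cell states then grew for 5 days in growth medium with serum, no agent is named for either. A group without the *Dmd* mutation was not analysed here. The comparison asks which transcripts differ between the cell states before differentiation is induced. The labels do not say which replicates share a mouse, and *p*-values measure the spread between these cultures.

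Vitamin A circulates as retinol bound to RBP4 and is kept in cells as retinyl esters. Alcohol and retinol dehydrogenases turn retinol into retinal, and the retinaldehyde dehydrogenases of the ALDH1A family turn retinal into retinoic acid in a step that is not reversed. CRABP proteins carry retinoic acid inside the cell and CYP26 enzymes degrade it. In the nucleus, retinoic acid receptors (RARs) pair with retinoid X receptors (RXRs) on response elements in the DNA, and retinoic acid is known to restrain the conversion of preadipocytes into fat cells, while adipose tissue is one of the sources of circulating RBP4 and chemerin.

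Depth ran from 1880561 to 3985656 counts per library, so that 3 counts, used as the floor of detection, equal 0.792 to 1.63 CPM (counts scaled to a common library size by TMM). This limit covers counting error only. Libraries were made from the 3′ ends of transcripts, one fragment per transcript whatever its length, so that the CPM of different genes can be set side by side without division by length. Markers did not follow the labels in one respect. *Ly6a*, which encodes SCA-1 itself, stood at 492 to 919 CPM in SCA1-High-FAPs and at 1014 to 1156 CPM in SCA1-Low-FAPs after the 5 days of culture, a log2 ratio of SCA1-Low-FAPs to SCA1-High-FAPs of 0.61 (adjusted p = 0.0341, edgeR). The names therefore stand for the sort gate at isolation and not for the *Ly6a* mRNA of the cells sequenced. *Pdgfra*, a marker of FAPs, was present in all 8 libraries at 157 to 291 CPM. The 7 FAP markers summed to 1740 to 2441 CPM in SCA1-High-FAPs and to 2040 to 2200 CPM in SCA1-Low-FAPs. All 7 were tested and 3 passed the test described below, as did 7.68% of all tested genes. *Ly6a* and *Thy1* (log2 ratio 0.67, adjusted p = 0.0105, edgeR) were higher in SCA1-Low-FAPs. *Dcn* (log2 ratio −2.08, adjusted p = 0.0167, edgeR) was higher in SCA1-High-FAPs. The summed CPM of 12 adipocyte markers ran from 1253 to 7101 in SCA1-High-FAPs and from 139 to 703 in SCA1-Low-FAPs. All 9 adipocyte markers that could be tested had higher fitted levels in SCA1-High-FAPs, and 5 of them passed the test described below, as did 4.36% of all tested genes in that direction. *Adipoq* (adiponectin) stood at 60.1 to 608 CPM against 4.22 to 24.4 and passed (adjusted p = 0.0352, edgeR). *Plin1* (perilipin) at 55.7 to 323 CPM against 11.6 to 53.4 and *Cfd* (adipsin) at 103 to 1036 CPM against 1.63 to 42.8 did not pass (adjusted p = 0.0751 and 0.0534), while *Lep* had no count in any library. Replicate 3 of SCA1-Low-FAPs held the highest sum of its cell state. In these bulk samples more adipocyte-like cells and more such RNA per cell cannot be told apart. Leucocyte markers summed to 23.1 to 43.0 CPM against 6.77 to 15.9 CPM, with 4 of the 7 at 0 in all libraries. Nearly all of this sum came from *Lyz2*, at 28.7 and 10.5 CPM on average. It was the 1 leucocyte marker that could be tested, and it passed (log2 ratio −1.42, adjusted p = 0.0153, edgeR). *Ptprc*, which encodes CD45, had 1 count over all libraries. The myogenic sum was at most 12.5 CPM, the endothelial sum at most 7.39 CPM and the mesothelial sum at most 12.7 CPM in any library. Mural markers summed to 25.3 to 44.7 CPM in SCA1-High-FAPs against 27.3 to 67.0 CPM, tendon markers to 161 to 344 CPM against 299 to 398 CPM, and nerve sheath markers to 150 to 258 CPM against 252 to 361 CPM. All 3 tested mural markers passed, *Cspg4* and *Myh11* higher in SCA1-Low-FAPs and *Notch3* higher in SCA1-High-FAPs, as did *Ncam1* of the 2 tested nerve sheath markers, higher in SCA1-Low-FAPs, while neither of the 2 tested tendon markers did. The part of these cell types in the results was not tested.

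The promoters of 6 of the 9 genes were found in RefSeq (GRCm38.p6). *Crabp1* is among the 6, and its libraries did not overlap between cell states, with higher values in SCA1-Low-FAPs. It had too few counts to be tested, and its promoter is not printed. The promoters of *Rarb*, *Rbp4* and *Aldh1a2* are printed. They belong to the receptor gene known for a retinoic acid response element and to a pair of tested genes whose libraries did not overlap. Each is the run of 250 bases before the annotated start, 5′ to 3′ on the strand of the gene. Capitals mark every match on either strand. The letters searched were the consensus receptor half-site AGGTCA with its common variants, which are read as AGTTCA in the first case, as GGTTCA in the next case, and as GGGTCA in the last. The promoter elements searched were the CAAT box in its core form CCAAT, the TATA box in the strict form TATAAA and the GC box in the form GGGCGG. No match overlaps another in these 3 runs. *Rarb* is read from chr14:16575477-16575726 on the minus strand, *Rbp4* from chr19:38124812-38125061 on the minus strand, and *Aldh1a2* from chr9:71215539-71215788 on the plus strand.
Rarb: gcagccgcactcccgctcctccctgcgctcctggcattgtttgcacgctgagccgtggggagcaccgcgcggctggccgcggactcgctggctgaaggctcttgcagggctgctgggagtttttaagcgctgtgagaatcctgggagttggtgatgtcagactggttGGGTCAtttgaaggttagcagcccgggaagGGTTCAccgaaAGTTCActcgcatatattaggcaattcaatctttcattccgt
Rbp4: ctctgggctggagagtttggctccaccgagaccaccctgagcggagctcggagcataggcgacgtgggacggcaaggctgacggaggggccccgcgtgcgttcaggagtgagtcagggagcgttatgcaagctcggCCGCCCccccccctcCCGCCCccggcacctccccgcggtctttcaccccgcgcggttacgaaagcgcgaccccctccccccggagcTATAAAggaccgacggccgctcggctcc
Aldh1a2: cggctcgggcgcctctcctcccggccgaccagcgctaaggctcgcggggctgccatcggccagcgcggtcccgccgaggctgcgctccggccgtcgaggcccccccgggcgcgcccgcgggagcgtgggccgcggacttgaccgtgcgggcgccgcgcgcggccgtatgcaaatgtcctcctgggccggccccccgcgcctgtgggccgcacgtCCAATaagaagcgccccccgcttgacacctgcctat
In the *Rarb* promoter the half-site GGTTCA is followed in the same direction by AGTTCA with 5 bases between them, and the pair begins 53 bases before the start. Such a pair, made from any of the 4 half-sites on either strand, was found in 29 of 32851 promoters (0.0883%), whereas single half-sites were common, from 8.85% of promoters for GGTTCA to 14.0% for AGGTCA. *Rarb* was the one retinoid gene among the 6 with such a pair. *Rbp4* has TATAAA from 28 bases before this start, a sequence held by 12.4% of promoters, and a pair of GC boxes on the other strand. A second annotated start of *Rbp4*, with its run at chr19:38125322-38125571, has the half-site GGGTCA and a CAAT box, both on the other strand. *Aldh1a2* has CCAAT from 36 bases before the start, which 33.8% of promoters hold. A match is a description of the letters and shows no binding.

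Of the 9 genes, 6 had enough counts for the test across all genes (edgeR's quasi-likelihood test with Benjamini-Hochberg adjustment). *Rbp4* and *Rarres2* were differentially expressed (called), with adjusted *p*-values under 0.05 and log2 ratios beyond 0.5 in either direction, and both were higher in SCA1-High-FAPs. Among all 10181 tested genes 7.68% were called in either direction, 4.36% higher in SCA1-High-FAPs and 3.32% higher in SCA1-Low-FAPs. The CPM of the cell states did not overlap for 3 of the 6 (*Aldh1a2*, *Rbp4* and *Rarres2*), against 14.1% of tested genes. Ratios are given as SCA1-Low-FAPs over SCA1-High-FAPs on the log2 scale, so that genes with more mRNA in SCA1-High-FAPs have negative values, and the median of all tested genes was 0.0003. Where a pair of means is given, that of SCA1-High-FAPs comes first. *Crabp1*, *Crabp2* and *Rarb* did not pass the filter on low counts and are given as counts.

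**Figure D1:**
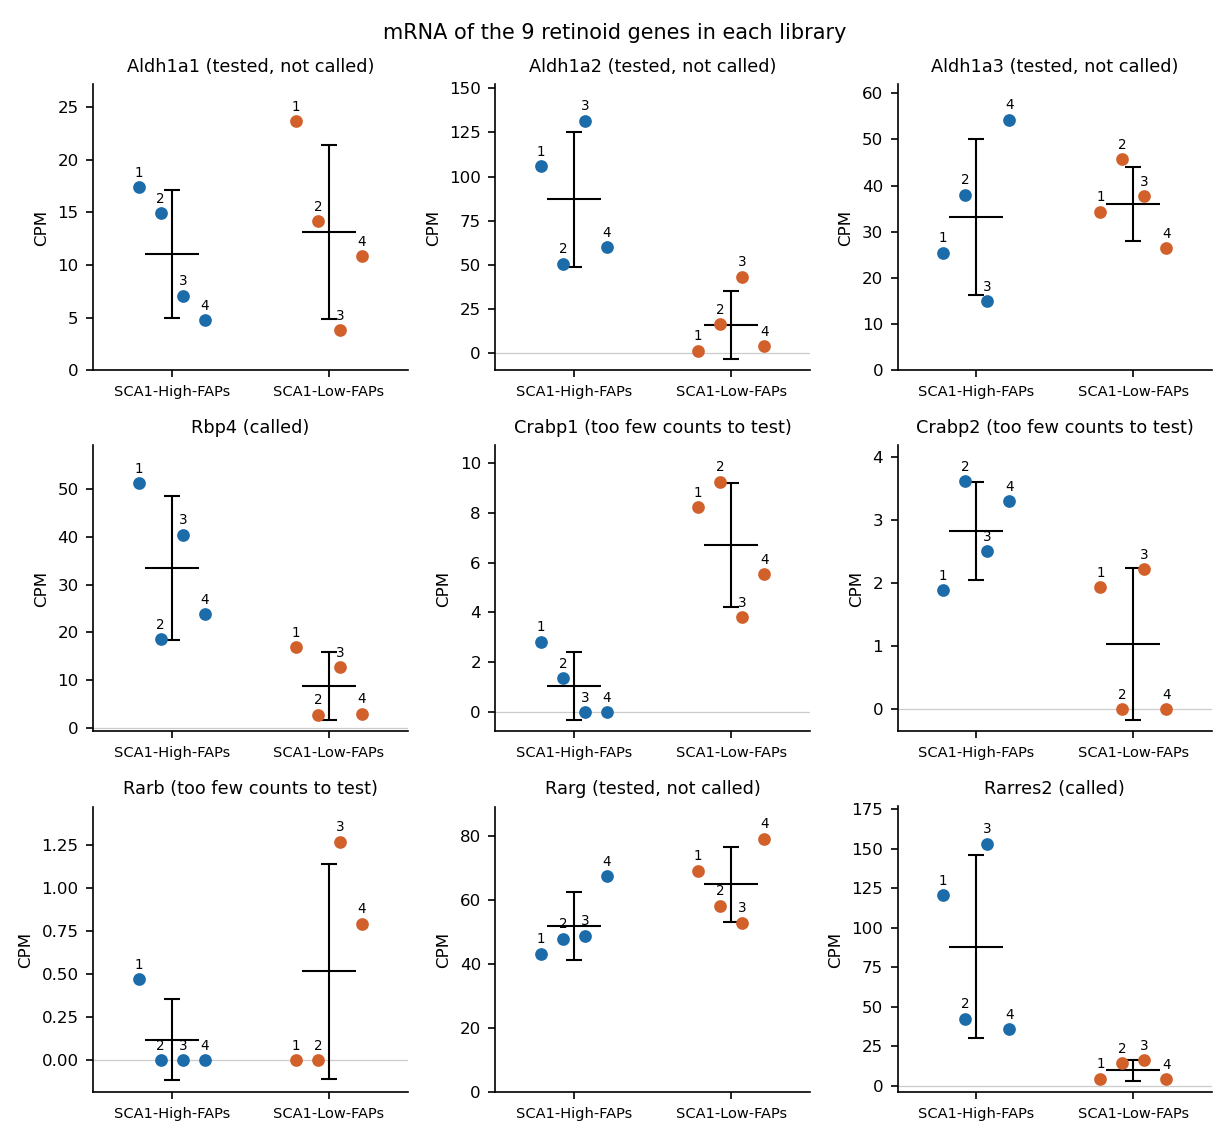
Each panel plots the CPM of one gene in the 8 libraries (points, numbered by replicate) with the mean and SD of each cell state (bars), on linear axes. The points of Aldh1a2, Rbp4 and Rarres2 lie higher in SCA1-High-FAPs with no overlap, those of Crabp1 lie higher in SCA1-Low-FAPs with no overlap at a few counts per library, and those of Aldh1a1, Aldh1a3 and Rarg overlap.

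*Aldh1a2* (ENSMUSG00000013584, chromosome 9 of GRCm38 from 71215789 to 71296243, plus strand) encodes RALDH2, the retinoic acid-producing enzyme of embryonic mesoderm. It gave 106, 50.6, 132 and 60.1 CPM in replicates 1 to 4 of SCA1-High-FAPs, from 112 to 315 counts. In SCA1-Low-FAPs the 4 replicates gave 1.45, 16.3, 43.5 and 3.96 CPM, from 3 to 137 counts. Every library of SCA1-High-FAPs was above every one of SCA1-Low-FAPs, but replicate 3 of SCA1-Low-FAPs came close to the lowest of the former. The means were 87.1 ± 38.2 CPM and 16.3 ± 19.2 CPM (SD, n = 4 in each). The log2 ratio of −2.39 (standard error, SE, 0.89, 95% interval −4.51 to −0.26) did not pass after adjustment (adjusted p = 0.184, edgeR), with replicates of SCA1-Low-FAPs that ran from 1.45 to 43.5 CPM. Without replicate 3 of SCA1-Low-FAPs the log2 ratio was −3.70 (adjusted p = 0.0133). Without robust estimation of the spread the log2 ratio of −2.39 also passed (adjusted p = 0.0252).

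*Aldh1a3* (ENSMUSG00000015134, chromosome 7 from 66390890 to 66427517, minus strand) encodes RALDH3, a further enzyme that oxidises retinal. It gave 25.4, 38.0, 15.03 and 54.3 CPM in SCA1-High-FAPs and 34.3, 45.7, 37.7 and 26.4 CPM in SCA1-Low-FAPs. All 4 values of SCA1-Low-FAPs fell within the range of SCA1-High-FAPs, whose lowest library was replicate 3. The log2 ratio was 0.11 (95% interval −0.58 to 0.79, adjusted p = 0.902, edgeR).

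*Aldh1a1* (ENSMUSG00000053279, chromosome 19 from 20492715 to 20643465, plus strand), the gene of RALDH1, was the least abundant of the family in SCA1-High-FAPs. There it gave 17.4, 14.9, 7.10 and 4.77 CPM, and in SCA1-Low-FAPs 23.7, 14.2, 3.81 and 10.8 CPM. The cell states overlapped, at a log2 ratio of 0.23 (95% interval −0.87 to 1.34, adjusted p = 0.859, edgeR). Its last 400 transcribed bases are 78.7% identical to those of *Aldh1a7*, its neighbour on the chromosome, over 409 aligned positions. Whether any reads were assigned to the wrong gene of the pair was not tested. *Aldh1a7* itself stood at 7.22 and 1.89 CPM on average (adjusted p = 0.171).

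Because each enzyme makes the same product, the family was also described as a whole. The summed CPM of the 3 genes was 149, 104, 154 and 119 in SCA1-High-FAPs and 59.5, 76.2, 85.0 and 41.2 in SCA1-Low-FAPs, with no overlap. *Aldh1a2* held 48.9% to 85.6% of the family's counts in SCA1-High-FAPs and 2.44% to 51.1% in SCA1-Low-FAPs. In replicate 1 of SCA1-Low-FAPs, where it was lowest, this was 3 of 123 counts (95% Wilson interval 0.833% to 6.93%, which like the next covers counting error only). *Aldh1a3* held 44.4% to 64.1% in SCA1-Low-FAPs and was the leading member in 3 of these 4 libraries. Replicate 3 of SCA1-Low-FAPs was the exception, with *Aldh1a2* in the lead at 51.1% (95% Wilson interval 45.2% to 57.0%), as in all 4 libraries of SCA1-High-FAPs.

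**Figure D2:**
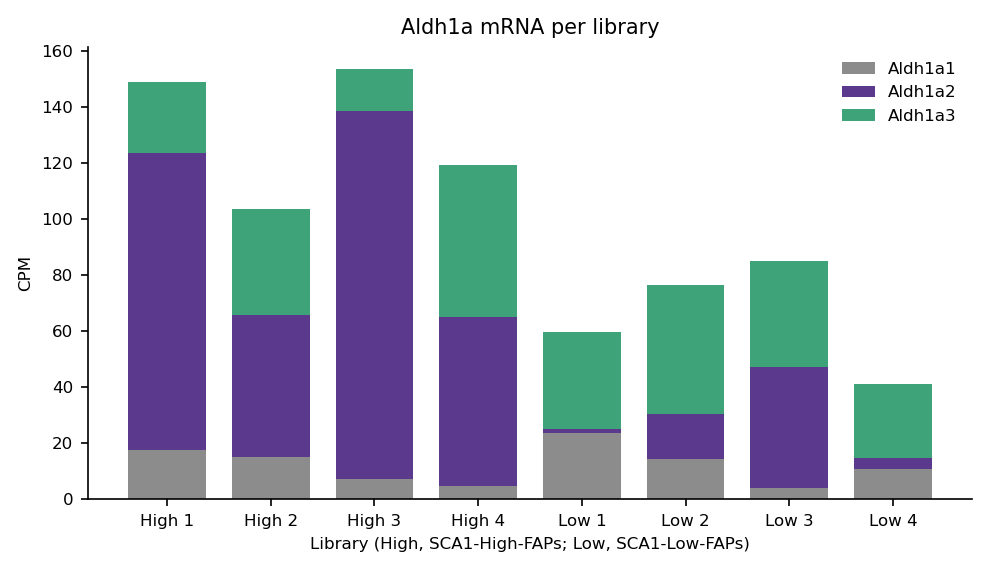
Bars give the CPM of the 3 Aldh1a genes stacked for each library, from 0, on a linear axis. Totals are 104 to 154 CPM in SCA1-High-FAPs and 41.2 to 85.0 CPM in SCA1-Low-FAPs, and the purple Aldh1a2 part is small in Low 1, Low 2 and Low 4 and large in Low 3.

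Among the binding proteins, *Rbp4* (ENSMUSG00000024990, chromosome 19 from 38116629 to 38125281, minus strand), the carrier of retinol in blood and an adipokine, was called. It gave 51.3, 18.5, 40.5 and 23.8 CPM in SCA1-High-FAPs, from 41 to 109 counts. SCA1-Low-FAPs gave 16.9, 2.72, 12.7 and 2.90 CPM, from 5 to 40 counts. The highest library of SCA1-Low-FAPs, replicate 1, was just below the lowest of SCA1-High-FAPs, replicate 2. The means of 33.5 ± 15.1 CPM and 8.81 ± 7.13 CPM (SD, n = 4 in each) gave a log2 ratio of −1.93 (SE 0.54, adjusted p = 0.0449, edgeR), or 3.82-fold more in SCA1-High-FAPs. The call was close to the limit: it was kept in 3 of the 8 fits that each left out 1 library, with log2 ratios from −2.40 to −1.61. It was lost without replicate 1, 3 or 4 of SCA1-High-FAPs or replicate 2 or 4 of SCA1-Low-FAPs, at adjusted *p*-values of 0.0586 to 0.105.

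The cellular carriers of retinoic acid were scarce. *Crabp1* (ENSMUSG00000032291, chromosome 9 from 54764748 to 54773110) had 6, 3, 0 and 0 counts in SCA1-High-FAPs and 17, 17, 12 and 21 counts in SCA1-Low-FAPs, or 0 to 2.82 CPM against 3.81 to 9.26 CPM. It lay in the opposite direction to *Rbp4*, with no overlap, but too low for the test across genes as filtered. DESeq2, which does not use that filter, gave a log2 ratio of 2.73 (SE 0.90, adjusted p = 0.0345), and edgeR with genes of 1 count or more gave 2.69 (adjusted p = 0.0493). In 5 of the fits that left out 1 library *Crabp1* passed the filter. It was called without replicate 1 of SCA1-High-FAPs (log2 ratio 3.83, adjusted p = 0.0437). It was not called without replicate 2, 3 or 4 of SCA1-High-FAPs or replicate 3 of SCA1-Low-FAPs, at log2 ratios of 2.24 to 2.87 and adjusted *p*-values of 0.0679 to 0.154. *Crabp2* (ENSMUSG00000004885, chromosome 3 from 87948666 to 87953376) had 4, 8, 6 and 9 counts in SCA1-High-FAPs and 4, 0, 7 and 0 counts in SCA1-Low-FAPs. At this depth no difference was detectable for *Crabp2* (log2 ratio −1.44, adjusted p = 0.533, DESeq2).

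Of the receptors, *Rarg* (ENSMUSG00000001288, chromosome 15 from 102234938 to 102257517, minus strand) encodes RAR-gamma. It ran from 43.3 to 79.2 CPM over all libraries, with means of 51.9 ± 10.7 CPM and 64.9 ± 11.7 CPM (SD, n = 4 each). SCA1-High-FAPs gave 43.3, 47.9, 48.8 and 67.5 CPM, and SCA1-Low-FAPs gave 69.1, 58.3, 53.0 and 79.2 CPM. Replicates 1, 2 and 3 of SCA1-High-FAPs were below all of SCA1-Low-FAPs, and replicate 4 lay among them. The log2 ratio of 0.32 (95% interval −0.12 to 0.76) did not pass (adjusted p = 0.416, edgeR).

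*Rarb* (ENSMUSG00000017491, chromosome 14 from 16430839 to 16819156, minus strand), whose promoter with the paired half-sites is printed above, encodes RAR-beta and is a classical gene that retinoic acid switches on through that element. It had 1, 0, 0 and 0 counts in SCA1-High-FAPs and 0, 0, 4 and 3 counts in SCA1-Low-FAPs, which is at or near the floor of 3 counts in all 8 libraries. Among the counts on the genes of the 3 RARs, *Rarg* took 52.0% to 59.5% in SCA1-High-FAPs and 48.8% to 65.4% in SCA1-Low-FAPs, *Rara* nearly all of the remainder, and *Rarb* at most 1.17% in any library. *Rara* stood at 40.1 and 49.4 CPM on average (adjusted p = 0.484). *Rarb* overlaps *Top2b* on the opposite strand, and the strand setting of the counting is not given in the sources used here. Of the 28 genes with paired half-sites, 15 were in the files, 1 had enough counts to be tested (*Blvrb*, log2 ratio 0.16, adjusted p = 0.757), and *Cyp26a1*, a classical gene of this kind, had no count in any library.

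*Rarres2* (ENSMUSG00000009281, chromosome 6 from 48569696 to 48572789, minus strand) encodes chemerin, a secreted adipokine and chemoattractant whose name comes from its response to retinoids. It gave 121, 42.5, 153 and 35.9 CPM in SCA1-High-FAPs, from 94 to 367 counts. SCA1-Low-FAPs gave 4.35, 14.2, 16.2 and 3.96 CPM, from 9 to 51 counts. The lowest library of SCA1-High-FAPs was well above the highest of SCA1-Low-FAPs, and replicates 1 and 3 of SCA1-High-FAPs stood far above replicates 2 and 4. The means were 88.0 ± 58.0 CPM and 9.66 ± 6.41 CPM (SD, n = 4 in each), and the log2 ratio was −3.20 (SE 0.67, adjusted p = 0.0269, edgeR), or 9.17-fold more in SCA1-High-FAPs. *Rarres2* remained called in 5 of the 8 fits with 1 library left out, with log2 ratios from −3.65 to −2.79. It was not called without replicate 1, 2 or 4 of SCA1-Low-FAPs, at adjusted *p*-values of 0.0673 to 0.0828, nor when genes of 1 count or more were tested (adjusted p = 0.0636). The gene overlaps *Lrrc61* on the opposite strand, which had 171 counts over the 8 libraries.

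**Figure D3:**
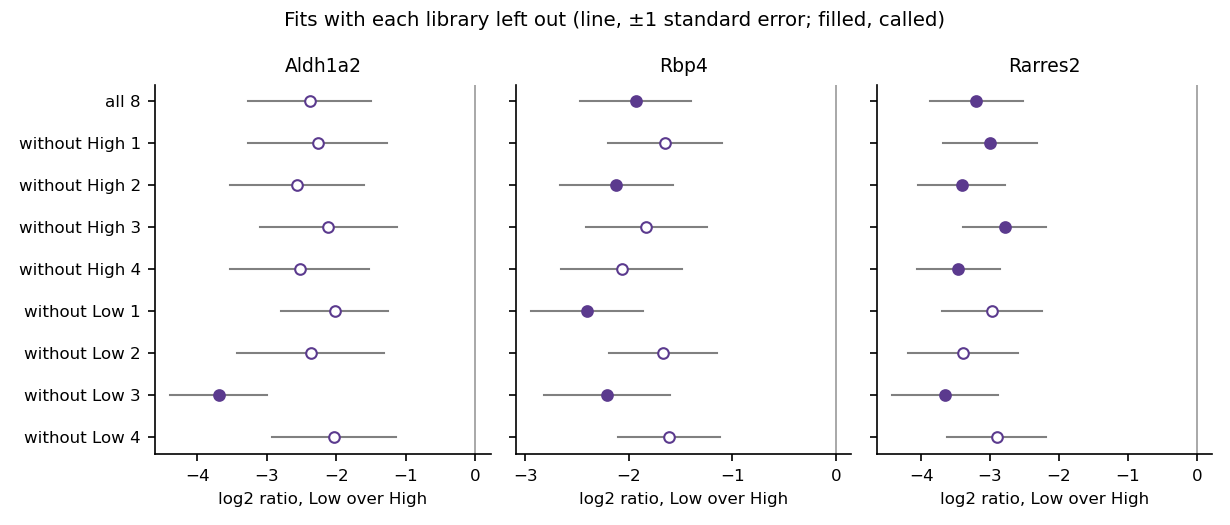
Points give the log2 ratio (SCA1-Low-FAPs over SCA1-High-FAPs) of Aldh1a2, Rbp4 and Rarres2 with all 8 libraries and with each library left out, lines give 1 SE to either side, and filled points mark fits in which the gene was called. All points lie below 0, Aldh1a2 is filled only without replicate 3 of SCA1-Low-FAPs, Rbp4 in 3 and Rarres2 in 5 of the 8 fits that left out 1 library.

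In SCA1-High-FAPs the order of mean levels was *Rarres2* (88.0 CPM), *Aldh1a2* (87.1 CPM), *Rarg* (51.9 CPM), *Rbp4* (33.5 CPM), *Aldh1a3* (33.2 CPM) and *Aldh1a1* (11.1 CPM), with the CRABP genes and *Rarb* last. Among these 6, the libraries of neighbours in the order overlapped. In SCA1-Low-FAPs *Rarg* (64.9 CPM) came first with no overlap with *Aldh1a3* (36.0 CPM). *Aldh1a2*, *Aldh1a1*, *Rarres2* and *Rbp4* followed at 16.3, 13.1, 9.66 and 8.81 CPM, and their libraries overlapped with one another and with those of *Crabp1*.

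Adipocyte markers varied between libraries along with several of these genes. Replicates 1 and 3 of SCA1-High-FAPs held the highest marker sums (7101 and 4088 CPM) and also the highest CPM of *Aldh1a2*, *Rbp4* and *Rarres2*. Within SCA1-Low-FAPs, replicate 3 had the highest marker sum (703 CPM) and the highest *Aldh1a2* and *Rarres2*, while *Rbp4* was highest in replicate 1, with a marker sum of 243 CPM. Replicate 4 of SCA1-High-FAPs had the lowest marker sum of its cell state (1253 CPM) and held more *Aldh1a2* and *Rbp4* than replicate 2, whose sum was 2430 CPM. The part of adipocyte-like cells in the differences of *Aldh1a2*, *Rbp4* and *Rarres2* was not tested. *Adh1*, from the wider pathway, also had its highest values in replicates 1 and 3 of SCA1-High-FAPs (201 and 196 CPM) and, within SCA1-Low-FAPs, in replicate 3 (31.7 CPM).

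**Figure D4:**
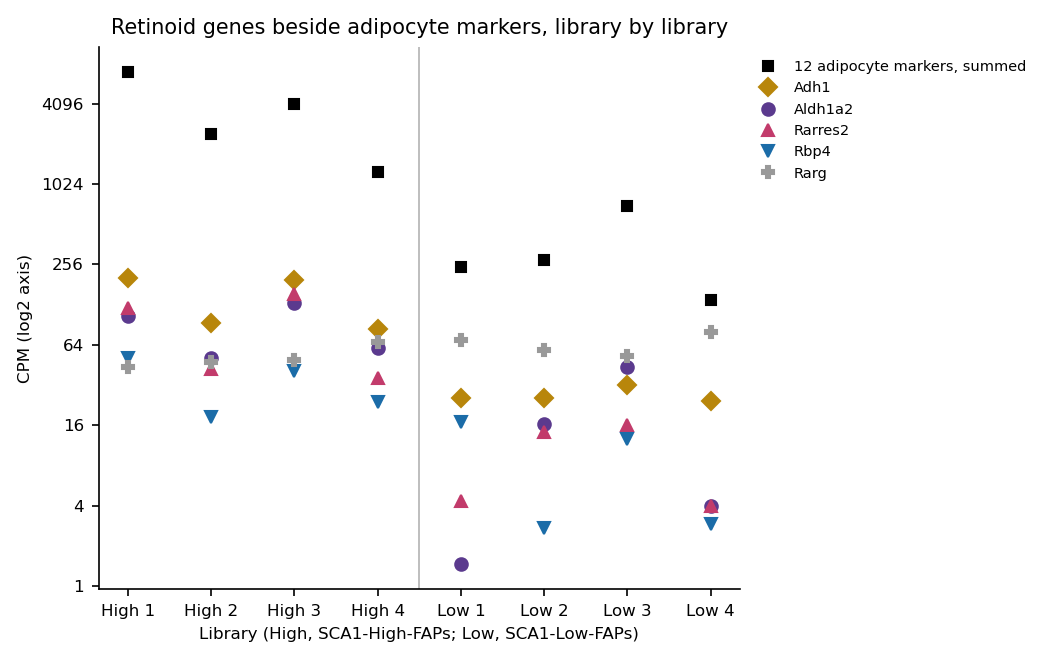
Points give, for each library, the CPM of Adh1, Aldh1a2, Rarres2, Rbp4 and Rarg and the summed CPM of 12 adipocyte markers, on a log2 axis. The marker sum is highest in High 1 and High 3 and, within SCA1-Low-FAPs, in Low 3, where Aldh1a2, Rarres2 and Adh1 are also at their highest within each cell state, while Adh1 spans 24.3 to 31.7 CPM in SCA1-Low-FAPs and Rarg 43.3 to 79.2 CPM over all 8 libraries.

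The genes whose log2 CPM followed a called gene most closely over the 8 libraries were ranked among 10180 genes. For *Rarres2* they were *Aoc3* (Pearson's r = 0.993), *Iigp1* (r = 0.989) and *Stc1* (r = 0.986), and 226 genes had an r over 0.9. For *Rbp4* they were *Ffar2* (r = 0.967), *Adgra2* (r = 0.966) and *Plekhg5* (r = 0.963), with 68 genes over 0.9. These coefficients take in the difference between the cell states, which any gene that differs the same way shares. With the mean of each cell state removed, they were 0.980, 0.958 and 0.955 for *Rarres2*, in the same order. For *Rbp4* they were 0.917, 0.936 and 0.920. These genes were picked by their high r over the same libraries.

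Of the 66 genes of the wider pathway, 55 had at least 1 count and 40 could be tested. Of these 9 were called, 8 higher in SCA1-High-FAPs and 1 higher in SCA1-Low-FAPs, beside 4.36% and 3.32% of all tested genes, respectively. The median log2 ratio of the 40 was −0.33. The called genes and the most abundant gene of each group are named here by rule, whereas *Rara*, *Aldh1a7*, *Cyp26a1* and *Blvrb* were picked after their values were seen.

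Retinol dehydrogenation gave the lowest adjusted *p*-value. *Adh1*, the class I alcohol dehydrogenase that oxidises retinol to retinal, stood at 201, 93.6, 196 and 84.3 CPM in SCA1-High-FAPs and at 25.6, 25.6, 31.7 and 24.3 CPM in SCA1-Low-FAPs. All libraries of SCA1-High-FAPs were far above those of SCA1-Low-FAPs, which were close to one another. The log2 ratio was −2.42 (SE 0.28, adjusted p = 0.0004, edgeR), and *Adh1* was called in all 15 alternative fits. Of the 12 tested genes of retinol and retinal oxidation and reduction, *Adh1* was the one called, which is near the 7.68% of all tested genes, and the median of the 12 was −0.29.

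All 4 tested genes of ester storage and release were called higher in SCA1-High-FAPs, beside 4.36% of all tested genes. They are also genes of triglyceride handling. *Dgat1*, an acyltransferase that can esterify retinol as well as diacylglycerol, stood at 112 ± 35.7 CPM and 47.3 ± 5.76 CPM (SD, n = 4 in each), with a log2 ratio of −1.23 (adjusted p = 0.003, edgeR). *Lpl* (lipoprotein lipase), the most abundant of the group, averaged 3684 ± 1709 CPM and 658 ± 214 CPM (SD, n = 4 each, log2 ratio −2.49, adjusted p = 0.007). *Lipe* (hormone-sensitive lipase, which also cleaves retinyl esters) and *Pnpla2* (the triglyceride lipase ATGL) had log2 ratios of −2.70 (adjusted p = 0.0243) and −3.52 (adjusted p = 0.0286). In the fits that each left out 1 library, *Lipe* and *Pnpla2* were each called in 3 of 8, with adjusted *p*-values of up to 0.0889 and 0.111. *Lipe* was lost without replicate 3 of SCA1-High-FAPs or any library of SCA1-Low-FAPs, and also when genes of 1 count or more were tested. *Pnpla2* was lost without replicate 2 or 3 of SCA1-High-FAPs or replicate 1, 2 or 4 of SCA1-Low-FAPs. *Lipe* is also among the 12 adipocyte markers. *Lrat*, the main retinol esterifying enzyme of liver and stellate cells, had no count in any library.

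Of the 3 genes of retinoic acid breakdown, 1 could be tested. *Cyp26b1*, a cytochrome that hydroxylates retinoic acid, gave 268, 352, 365 and 314 CPM in SCA1-High-FAPs. SCA1-Low-FAPs gave 613, 443, 437 and 781 CPM. The cell states did not overlap, and *Cyp26b1* was the one called gene of the wider pathway that was higher in SCA1-Low-FAPs, at a log2 ratio of 0.81 (SE 0.18, adjusted p = 0.0116, edgeR). Without replicate 4 of SCA1-Low-FAPs, its highest library, the adjusted *p*-value was 0.0548 and the log2 ratio 0.61. The other 2 members of the family, *Cyp26a1* and *Cyp26c1*, had no counts. Set against the summed *Aldh1a* mRNA of the same library, *Cyp26b1* was 1.80 to 3.40 times as abundant in SCA1-High-FAPs and 5.15 to 19.0 times in SCA1-Low-FAPs. This ratio of mRNA levels, read after both its terms were known, is a description with no test.

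In uptake and transport, *Fabp5*, which binds fatty acids and can bring retinoic acid to PPAR-delta, was at 424 ± 121 CPM and 253 ± 34.5 CPM (SD, n = 4 in each), with a log2 ratio of −0.74 (adjusted p = 0.0269, edgeR). *Fabp5* was called in 2 of the 8 fits with 1 library left out, those without replicate 4 of SCA1-High-FAPs or replicate 3 of SCA1-Low-FAPs, and the adjusted *p*-value was at most 0.0962 in the others. Among receptors and partners, 2 of 11 tested genes were called, beside 7.68% of all tested genes. *Rxra* (RXR-alpha) stood at 135 ± 18.7 CPM and 88.0 ± 2.73 CPM (SD, n = 4 each), a log2 ratio of −0.62 (adjusted p = 0.0217, edgeR). The call was lost with the replicate number as a block and in 4 of the 8 fits with 1 library left out, those without replicate 3 of SCA1-High-FAPs or replicate 1, 2 or 4 of SCA1-Low-FAPs (adjusted *p*-values of up to 0.0693). *Nrip1*, a corepressor of nuclear receptors, had a log2 ratio of −0.91 (adjusted p = 0.002). *Ncor1*, the most abundant of this group, was at 498 and 398 CPM on average (adjusted p = 0.155).

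None of the 8 tested textbook response genes was called by edgeR or by DESeq2, and none had an unadjusted *p*-value under 0.05. With 7.68% of all tested genes called, a list of this size would hold few calls in any case. The list does not hold every retinoid-responsive gene, as *Rarres2*, *Rarb* and *Cyp26a1* were counted under other roles. Of the chemerin receptors only *Cmklr1* could be tested, at 7.17 and 12.5 CPM on average (log2 ratio 0.80, adjusted p = 0.426).

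**Figure D5:**
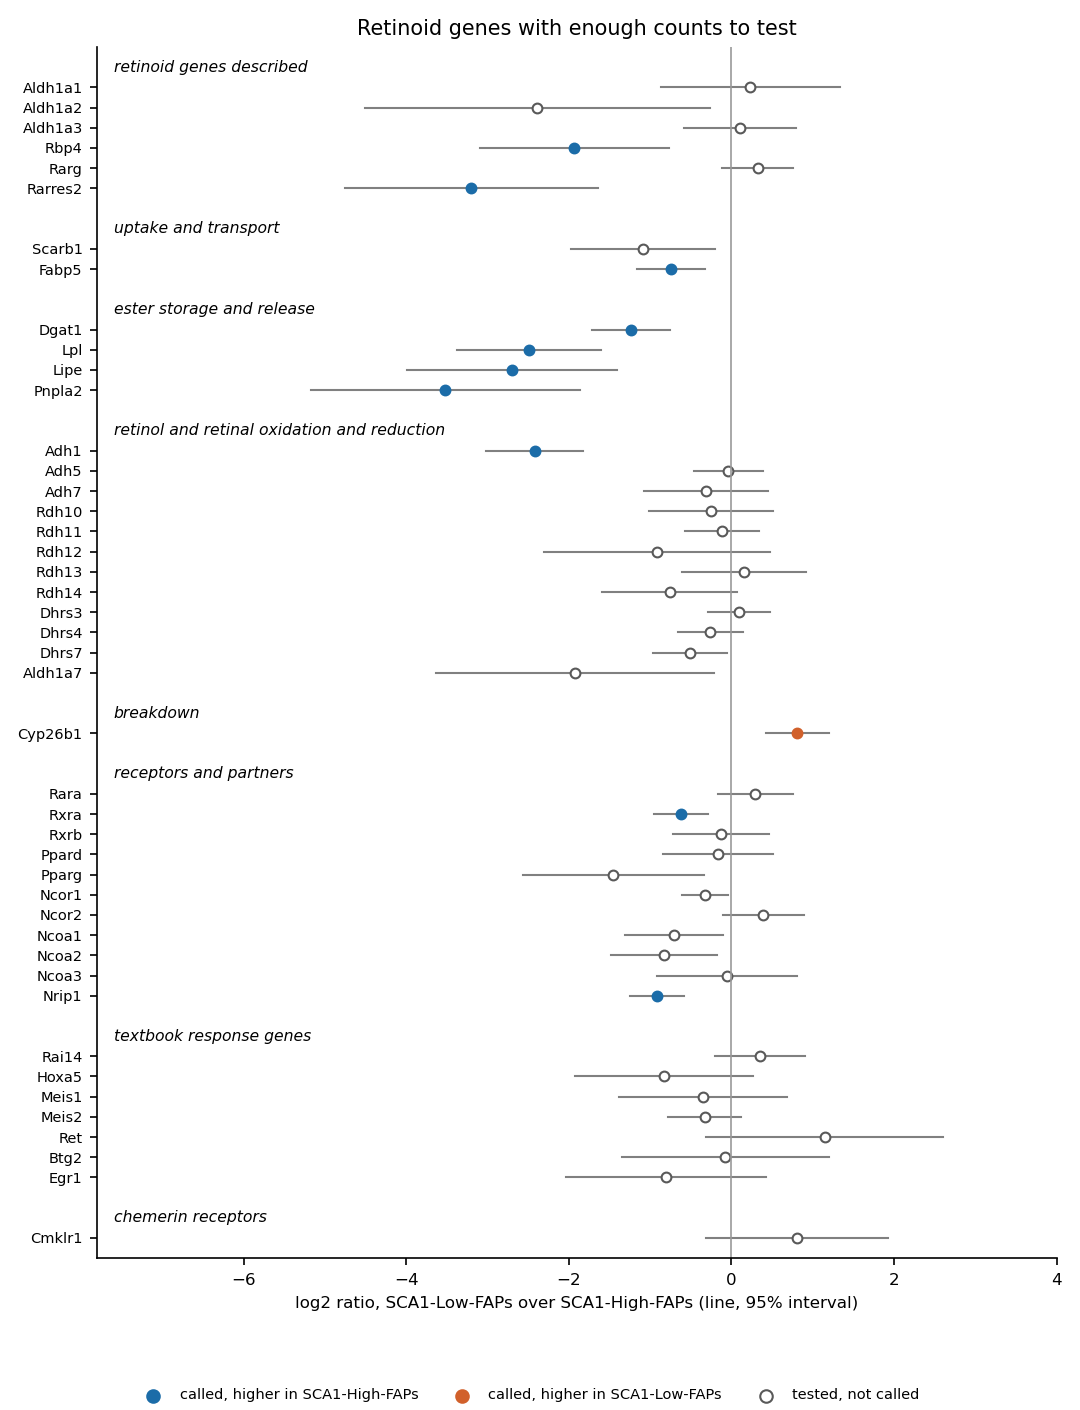
Points give the log2 ratio (SCA1-Low-FAPs over SCA1-High-FAPs) of the 6 tested genes described and of tested genes of the wider pathway, grouped by role, with 95% intervals as lines. Filled points mark called genes. Rbp4, Rarres2, the 4 genes of ester storage and release, Adh1, Fabp5, Rxra and Nrip1 are filled to the left of 0. Cyp26b1 is filled to the right, and none of the textbook response genes is filled.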

How the data were processed

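RNA of 8 cultures, 4 SCA1-High-FAPs and 4 SCA1-Low-FAPs as labelled, was sequenced from 100 ng as 3′ mRNA libraries. The authors trimmed the reads, aligned them with STAR to the mouse genome (mm10 per the submitters' processing notes) and counted them on genes with HTSeq, and the deposited values are raw counts per Ensembl gene without normalisation. The strand setting is not given in the sources used here, and no molecular identifiers are named. Entries that name no gene were left out. Of the reads counted on a gene, as ambiguous or on no feature, 13.3% to 16.4% fell on no feature. Of 31053 genes, 31011 were given a name from GENCODE M21 (GRCm38) or, where it had none, from a separate list of gene names. Positions came from GENCODE M21.

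The cell states were compared with edgeR 4.0.16 under R 4.3.3 (robust quasi-likelihood test, TMM, filterByExpr with at least 10 counts in enough samples and 15 in total, Benjamini-Hochberg adjustment over 10181 genes). Genes were called where the adjusted *p*-value was under 0.05 with a log2 ratio (SCA1-Low-FAPs over SCA1-High-FAPs) beyond 0.5 in either direction. Standard errors (SE) were taken as the size of that ratio over the root of F. Likeness of genes was Pearson's r of log2 CPM with a prior count of 2. Depth of 1880561 to 3985656 counts per library limits what a low count can show. Alternatives were DESeq2 1.42.0, RLE factors, other count filters, the replicate number as a block, no robust estimation, other thresholds and each library left out in turn. Tests were checked on simulated counts drawn with the same spread for every gene. That check does not cover genes with very unequal replicates, such as *Aldh1a2*. Promoters came from RefSeq (GRCm38.p6). Figures used Python 3.11.15 and matplotlib 3.10.9.

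The 9 genes, the wider lists, the markers and the rule for named genes (all 9, every called gene and the most abundant gene of each wider list, the 3 genes most like each called one, *Ly6a*, *Pdgfra*, *Adipoq*, *Cfd* and *Plin1*) were chosen with earlier results of these data known. No pair of replicates of one cell state agreed within sampling noise (chi-square per degree of freedom 7.33 to 20.4). Values of a few single genes of the wider lists are not reported here, and counts over lists include them.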

Additional observations from a re-analysis of the deposited data

Results flagged for a closer look

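In 4 of 52 groups of 4 libraries examined, a library lay far from the other 3 for a gene named in the text, and chance alone gives about 1 in 20 such groups. Replicate 3 of SCA1-Low-FAPs stood apart for *Pnpla2* (30.1 CPM, nearest other library of its cell state 13.5 CPM), for *Cfd* (42.8 CPM, nearest 7.73 CPM) and, in the low direction, for *Cmklr1* (6.34 CPM, nearest 14.2 CPM). Replicate 3 of SCA1-High-FAPs stood apart for *Rxra* (162.8 CPM, nearest 127.1 CPM).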

How the results depend on the processing

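Of the 9 genes, 2 were called in the fit as reported, 0 to 3 when each library was left out in turn (0 without replicate 2 or replicate 4 of SCA1-Low-FAPs, 3 without its replicate 3), 3 with DESeq2, 0 at an adjusted *p*-value of 0.01, and 0 with at least 10 counts in every sample, where *Aldh1a2*, *Rbp4* and *Rarres2* themselves fell below the filter and 3 genes were tested. The wider pathway had 9 calls, 4 to 10 with each library left out (4 without replicate 4 of SCA1-Low-FAPs), 4 at an adjusted *p*-value of 0.01 and 5 at a log2 ratio beyond 1. Over all genes, 782 calls became 410 to 1017 with each library left out (410 without replicate 4 and 1017 without replicate 3 of SCA1-Low-FAPs), 307 at an adjusted *p*-value of 0.01, 472 at a log2 ratio beyond 1 and 1065 with DESeq2. With each library left out, the log2 ratio of *Aldh1a1* ran from −0.21 to 0.55 and that of *Aldh1a3* from −0.14 to 0.46. The sign of *Aldh1a1* turned without replicate 4 of SCA1-High-FAPs (−0.02) and without replicate 1 of SCA1-Low-FAPs (−0.21), and that of *Aldh1a3* without replicate 3 of SCA1-High-FAPs (−0.14) and without replicate 2 of SCA1-Low-FAPs (−0.02). The other tested genes of the 9 kept their direction in every alternative, and *Dgat1*, *Lpl*, *Adh1* and *Nrip1* were called in all 15.

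Same-numbered libraries of the 2 cell states had correlations of their deviations of −0.05 to 0.0067, and in no number did both libraries correlate best with each other. The best matches lay across numbers. Replicates 1, 2, 3 and 4 of SCA1-High-FAPs went with replicates 2, 1, 4 and 3 of SCA1-Low-FAPs, at 0.164, 0.131, 0.255 and 0.137. With 4 libraries per cell state, such values cannot show which libraries share a mouse. With the replicate number as a block, edgeR called 2 of the 9 genes, 10 of the wider pathway and 697 in all. DESeq2 with the block called 4 of the 9 genes, with *Aldh1a2* at −3.16 (adjusted p = 0.0085) and *Crabp1* at 3.49 (adjusted p = 0.0267). *Rxra* was not called under either block. Depth limits what can be said of *Crabp1*, *Crabp2* and *Rarb*, which had at most 21 counts in any library. The causes of these changes were not tested.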
